A study of Mus musculus with 6 samples.

Results

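Tumour cells carry surface proteins that hold immune cells back, and the mRNAs of 8 of them were followed here by gene symbol: Cd274, Cd276, Vtcn1, Pvr, Cd47, Cd24a, Lgals9 and Nt5e. All 8 symbols were among the 24346 symbols of the deposited tables. The set is defined by symbol alone, but it was drawn up with earlier results of these data known. Cd274 (PD-L1), Cd276 (B7-H3) and Vtcn1 (B7-H4) belong to the B7 family, whose members meet receptors on T cells. Pvr (CD155) binds TIGIT and CD96, which restrain T and NK cells, and DNAM-1 (CD226), which activates them. Cd47 and Cd24a are signals against phagocytosis read by SIRP-alpha and Siglec receptors on macrophages. Lgals9 encodes galectin-9, a lectin that binds TIM-3 among other glycoproteins, and Nt5e encodes CD73, the ectoenzyme that turns extracellular AMP into adenosine, which dampens T cells.

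The measurements were mRNA sequencing of 6 libraries of 4T1, a carcinoma line from the mammary gland of a BALB/c mouse. WT is the label of 2 libraries of mock transfected cells. The shRNA1 and shRNA3 groups, with 2 libraries each, are 4T1 cells in which the long noncoding RNA AU021063 was knocked down with either of 2 short hairpin RNAs. No non-targeting hairpin is named, and it is not stated whether a hairpin group is 1 clone or a pool, or whether its libraries came from separate cultures. The p-values therefore cover only library-to-library spread, possibly technical. The comparisons of shRNA1 and shRNA3 with WT share the WT libraries, so their values are set side by side. Values are FPKM, fragments per length of transcript and total of mapped fragments, so levels of different genes are compared per length. Group values are means ± SD of n = 2 libraries. Differences are between means of log2(FPKM + 1), where the added 1 shrinks the change of low genes. They were tested with limma, with Benjamini-Hochberg adjustment over 11079 genes whose mean reached 1 FPKM. A gene was called at an adjusted p under 0.05.

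The libraries were similar in depth, at 86.8% to 105% of WT replicate 1 as judged from low values, with totals of 560862 to 604022 FPKM. AU021063 measured 1.82 and 1.67 FPKM in the WT libraries, 1.04 and 0.572 in those of shRNA1, and 0.785 and 0 in those of shRNA3, lower in every knockdown library than in WT. An annotated gene on the other strand, A330009N23Rik, spans all of AU021063 and has a row of its own. How reads were assigned between them is not known here, as the strand setting of the quantification was not given. Of 10 epithelial markers 7 averaged at least 1 FPKM, with Krt18 at 510.5 FPKM. Markers of T and NK cells summed to at most 0.152 FPKM in any library and 7 of 9 were listed at 0 in all, and those of B cells summed to at most 0.115. Endothelial markers reached 0.198 FPKM at most. Of 9 myeloid markers Ptprc, Itgam and Fcgr1 were listed at 0, but the sum went from 6.75 and 6.80 FPKM in WT to 16.1 and 18.6 with shRNA1 and 27.7 and 28.1 with shRNA3, nearly all of it Cd68, a lysosomal protein. Fibroblast markers summed to 59.8 to 70.9 FPKM, mostly Pdgfra, with Col3a1 and Thy1 listed at 0. In bulk RNA, fewer cells that express a gene and less RNA per cell cannot be told apart.

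Cd274 and Pvr rose with both hairpins. Cd24a and Nt5e fell with shRNA3 and were not called with shRNA1, Cd47 rose with shRNA3, and Lgals9 fell with shRNA1 and rose with shRNA3. Cd276 did not pass in any comparison, and Vtcn1 was listed at 0 throughout. With shRNA1 3 of the 7 tested members were called, 2 higher and 1 lower, where 36.0% of all tested genes were called (17.6% higher and 18.4% lower). With shRNA3 6 of 7 were called, 4 higher and 2 lower, against 55.2% of all genes (27.4% higher and 27.8% lower). Over the mean of both hairpins 4 of 7 were called, 2 each way, against 50.0% of all genes (24.1% higher and 25.9% lower). The share over both hairpins was thus close to the background. Cd276 was called with neither hairpin, as were 35.2% of all genes. Called higher with shRNA1 and also called lower with shRNA3 were 0 members, against 1.07% of all genes. Nt5e had these signs but was not called with shRNA1. The libraries of 5 of 7 members did not overlap between shRNA1 and WT (69.0% of all genes), 6 of 7 between shRNA3 and WT (78.7%), 7 of 7 between the hairpins (73.2%) and 3 of 7 between all knockdown libraries and WT (47.7%). The median difference of the 7 members was 0.01 with shRNA1 and 0.20 with shRNA3, against -0.01 and -0.01 for all genes tested.

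**Figure D1:**
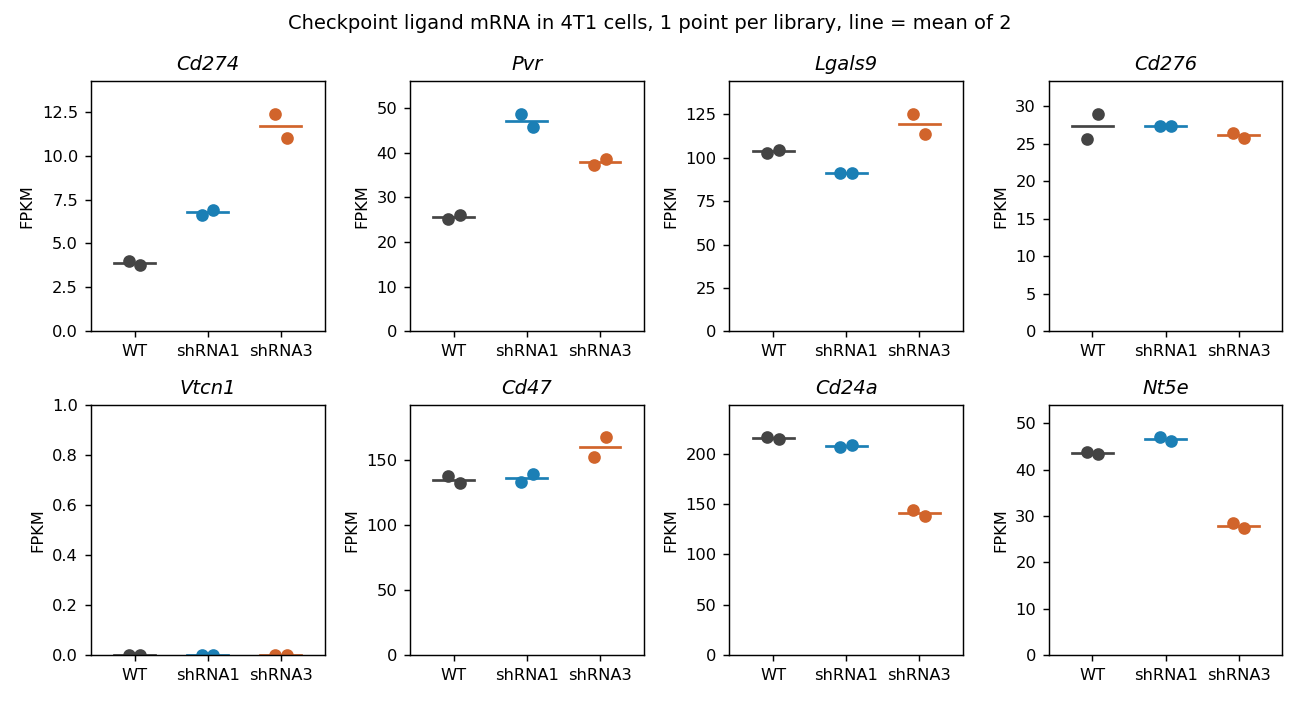
FPKM of each ligand mRNA (vertical axis, from 0) in WT, shRNA1 and shRNA3 cells, with 1 point per library and a line at the mean of 2. Cd274 climbs from 3.905 FPKM in WT to 11.7 with shRNA3, Pvr is highest with shRNA1, Cd24a and Nt5e drop with shRNA3, and Vtcn1 lies at 0.

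Cd274 (ENSMUSG00000016496.7) lies on chromosome 19 of mm10 (GRCm38), positions 29367455 to 29388095, plus strand, with 7 exons in 1 annotated transcript. Its protein, PD-L1, binds PD-1 on T cells and is induced by interferon-gamma in many tissues. The 250 bases before its RefSeq start site are shown because the gene had the largest change of the set over both hairpins. They are from GRCm38.p6, the C57BL/6J reference and not the 4T1 genome, chr19:29367188-29367437, plus strand, read 5′ to 3′. Capitals mark a hypoxia response core and a GC box.
Cd274: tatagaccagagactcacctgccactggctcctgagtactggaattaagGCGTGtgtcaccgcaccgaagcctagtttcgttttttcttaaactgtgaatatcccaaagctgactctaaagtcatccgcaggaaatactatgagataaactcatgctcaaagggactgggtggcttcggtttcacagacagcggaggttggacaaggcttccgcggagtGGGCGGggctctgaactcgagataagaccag
The window was searched on both strands for the hypoxia response core (ACGTG or GCGTG), the GC box (GGGCGG), an interferon regulatory factor (IRF) element (GAAA, any 2 bases, GAAA), a GAS element (TTCNNNGAA), an AP-1 site (TGANTCA), a CRE (TGACGTCA) and a TATA box (TATAAA). It held GCGTG at bases -201 to -197 and GGGCGG at -31 to -26, counted from the start site, and the letters of the other motifs were not in it. Of 32544 promoter windows of the same length 38.8% held a hypoxia response core and 33.0% a GC box. A match of letters is a description and not a binding site.

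Cd274 measured 4.03 and 3.78 FPKM in the WT libraries, 6.64 and 6.90 in those of shRNA1, and 12.4 and 11.0 in those of shRNA3. No library of a group overlapped with another group, and shRNA3 stood highest. It was a low gene in WT, above only 15.5% of the genes tested, and 1 fragment was worth about 0.020 FPKM for coding genes of its length, so the WT mean rested on roughly 195 fragments. Cd274 rose 1.73-fold with shRNA1 (log2 difference 0.66 ± 0.08 SE, limma adjusted p = 5.21e-04) and 2.996-fold with shRNA3 (1.37 ± 0.08, adjusted p = 8.83e-06). The rise with shRNA3 exceeded that with shRNA1 by 0.71 (95% interval 0.53 to 0.89, limma adjusted p = 3.80e-04). An antisense gene, AC119228.1, overlaps Cd274 and shares 286 bases with its transcript. It has no row of its own in the tables, and the strand setting of the quantification is not known here. Cd68, the myeloid marker above, moved in the same order as Cd274 (6.59 ± 0.137 FPKM in WT, 17.3 ± 1.78 with shRNA1 and 27.8 ± 0.431 with shRNA3), and its part in the result was not tested.

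Cd276 (chromosome 9, 58524298 to 58555437, minus strand) encodes B7-H3, a B7 protein found on many carcinomas. It measured 25.7 and 29.0 FPKM in the WT libraries, 27.4 and 27.4 in those of shRNA1, and 26.5 and 25.8 in those of shRNA3. The 4 knockdown libraries all lay between the 2 WT libraries, which differed by 12.2% of their mean. The log2 difference from WT was 0.01 with shRNA1 (95% interval -0.14 to 0.15, limma adjusted p = 0.961) and -0.06 with shRNA3 (-0.21 to 0.08, adjusted p = 0.437). Changes within these intervals were not detectable, and the sign of each turned when 1 WT library was left out. Vtcn1 (chromosome 3, 100825459 to 100896922, plus strand), the gene of B7-H4, was listed at 0 in all 6 libraries. For coding genes of its length 1 fragment was worth about 0.029 FPKM, so a count of 0 allows up to 3 fragments, or about 0.087 FPKM, in each library.

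Pvr (ENSMUSG00000040511.14, chromosome 7, 19903578 to 19921160, minus strand) measured 25.2 and 26.0 FPKM in the WT libraries, 48.7 and 45.6 in those of shRNA1, and 37.3 and 38.6 in those of shRNA3. The 3 groups did not overlap, and here shRNA1 stood highest. Pvr rose 1.84-fold with shRNA1 (log2 difference 0.86 ± 0.05, limma adjusted p = 1.77e-05) and 1.48-fold with shRNA3 (0.55 ± 0.05, adjusted p = 8.94e-05). The order of the hairpins was thus the opposite of that for Cd274, and the difference between them was -0.30 (95% interval -0.42 to -0.19, limma adjusted p = 0.00265). Cd274 and Pvr rose with each hairpin, as did 12.2% of all tested genes. Annotated genes Gm16184 and Gm16251 overlap Pvr on the other strand and have no rows of their own.

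Cd47 (chromosome 16, 49800533 to 49915010, plus strand) is the ligand of SIRP-alpha. It measured 137.5 and 132 FPKM in the WT libraries, 133 and 139.5 in those of shRNA1, and 152 and 167 in those of shRNA3. The WT and shRNA1 libraries overlapped, and both shRNA3 libraries lay above them. Cd47 was 1.18-fold higher with shRNA3 than in WT (log2 difference 0.24 ± 0.06, limma adjusted p = 0.00703), and 0.01 higher with shRNA1 (95% interval -0.11 to 0.14, limma adjusted p = 0.868). The hairpins differed by 0.23 (limma adjusted p = 0.0128). The rise with shRNA3 lost its call when each library was rescaled to the same total (0.17, limma adjusted p = 0.0533; range over all alternatives 0.00510 to 0.0533). The difference between the hairpins lost it without shRNA1 replicate 1 (0.19, limma adjusted p = 0.07295) and without shRNA3 replicate 2 (0.16, 0.0777; range 0.00997 to 0.0777).

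Cd24a (ENSMUSG00000047139.9, chromosome 10, 43578284 to 43584265, plus strand) encodes CD24, a small glycosylated surface protein that is also a marker of luminal mammary epithelium. The highest ligand mRNA in WT, above 96.9% of the genes tested, it measured 216 and 214.5 FPKM there, 206 and 209 in the shRNA1 libraries, and 144 and 138 in the shRNA3 libraries. The shRNA3 libraries lay far below the other 4. Cd24a fell 1.52-fold with shRNA3 (log2 difference -0.60 ± 0.04, limma adjusted p = 1.61e-05), and the difference with shRNA1 was -0.05 (95% interval -0.14 to 0.04, limma adjusted p = 0.343). The hairpins differed by -0.55 (limma adjusted p = 5.86e-05). A processed pseudogene, Gm6212, matches 218 bases of the Cd24a transcript at 96.8% identity and has no row in the tables, so some reads may have been shared. Among the epithelial markers Krt8 and Krt18, which make up nearly all of their sum, also fell with shRNA3 (log2 differences -0.69 and -0.14, limma adjusted p = 1.42e-05 and 0.0281), while Cldn3 and Epcam rose (0.33 and 0.46, adjusted p = 0.00744 and 0.0184). The sum came to 954 and 990.3 FPKM in the WT libraries, 1050 and 1124 in those of shRNA1, and 765 and 769.9 in those of shRNA3, and its part in the fall of Cd24a was not tested.

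Nt5e (ENSMUSG00000032420.8, chromosome 9, 88327197 to 88372092, plus strand) measured 43.9 and 43.3 FPKM in the WT libraries, 47.0 and 46.2 in those of shRNA1, and 28.4 and 27.5 in those of shRNA3. The shRNA1 libraries lay slightly above WT and the shRNA3 libraries well below it. Nt5e fell 1.56-fold with shRNA3 (log2 difference -0.62 ± 0.04, limma adjusted p = 2.53e-05). With shRNA1 the difference was 0.09 (95% interval -0.01 to 0.20, limma adjusted p = 0.140). The hairpins differed by -0.72 (95% interval -0.82 to -0.61, limma adjusted p = 3.27e-05). Both Cd24a and Nt5e were also called over the mean of the hairpins (-0.33, adjusted p = 1.84e-04, and -0.27, 9.45e-04). These calls ended with all 4 knockdown libraries taken as 1 group (limma adjusted p = 0.273 and 0.480), and the values by hairpin place the fall in shRNA3. Cd24a, Nt5e and Cd47 were called with shRNA3 and not with shRNA1, as were 28.8% of all tested genes.

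Lgals9 (ENSMUSG00000001123.15, chromosome 11, 78962974 to 78984946, minus strand) was the member whose called changes had opposite signs. Its upstream window is shown because it is the only one of the 6 members with a promoter in the RefSeq table that held an IRF element, which 2.98% of all windows hold. It is chr11:78984925-78985174 of GRCm38.p6, minus strand, and capitals mark that element, whose 2 GAAA runs are read on the other strand.
Lgals9: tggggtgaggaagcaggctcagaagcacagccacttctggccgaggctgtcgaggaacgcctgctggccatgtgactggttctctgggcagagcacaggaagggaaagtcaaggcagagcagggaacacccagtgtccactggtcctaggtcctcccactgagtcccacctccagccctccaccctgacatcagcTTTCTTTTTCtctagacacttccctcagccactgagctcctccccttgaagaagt
The element lies at bases -55 to -46 and no other motif searched was in the window. Lgals9 measured 103 and 104 FPKM in the WT libraries, 91.3 and 91.0 in those of shRNA1, and 125 and 113 in those of shRNA3. The groups did not overlap, with shRNA1 below WT and shRNA3 above it. The log2 difference was -0.18 ± 0.05 with shRNA1 (limma adjusted p = 0.0279) and 0.20 ± 0.05 with shRNA3 (adjusted p = 0.0124), and only 0.975% of all tested genes were called lower with shRNA1 and higher with shRNA3. The mean over both hairpins hid this, at 0.01 (limma adjusted p = 0.892). Among the ligands the fall with shRNA1 was the call that ended in the most alternatives, 6 of 16. It ended without any 1 of the WT or shRNA1 libraries (limma adjusted p = 0.08009 and 0.0993 without WT replicates 1 and 2, and 0.08973 and 0.0950 without shRNA1 replicates 1 and 2), with no filter (0.05732) and with no trend in the prior variance (0.0667), with a range of 0.00438 to 0.0993. The rise with shRNA3 ended without WT replicate 1 (0.19, limma adjusted p = 0.0567) and without shRNA3 replicate 1 (0.13, 0.0734; range 0.00581 to 0.0734). The difference between the hairpins, 0.38 (95% interval 0.26 to 0.51, limma adjusted p = 9.67e-04), passed in all 16 alternatives.

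**Figure D2:**
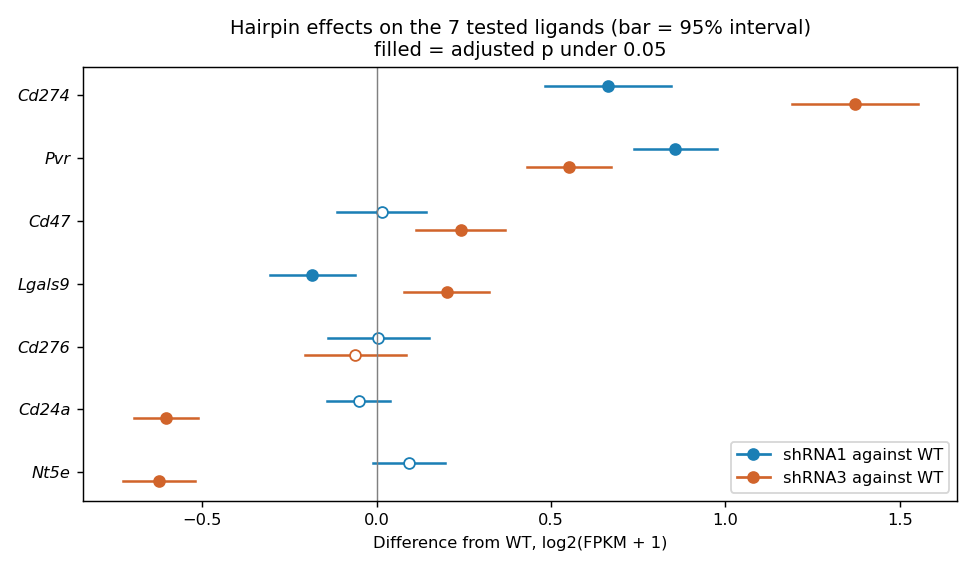
Difference from WT on the log2(FPKM + 1) scale (horizontal axis) for the 7 tested ligands with shRNA1 (blue) and shRNA3 (orange), each with its 95% interval, filled where the adjusted p was under 0.05. Cd274 and Pvr lie to the right with both hairpins, Cd24a and Nt5e lie to the left with shRNA3, and both intervals of Cd276 hold 0.

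Between the hairpins 6 of the 7 tested members differed, 3 higher and 3 lower with shRNA3 than with shRNA1, against 42.5% of all tested genes (22.0% higher and 20.5% lower). The order of the ligand mRNAs changed with them. In WT it ran Cd24a, Cd47, Lgals9, Nt5e, Cd276, Pvr, Cd274 and Vtcn1, and of these neighbours Cd276 and Pvr did not differ beyond the spread of their libraries. With shRNA1 Pvr moved up to Nt5e (47.2 ± 2.18 against 46.6 ± 0.571 FPKM), and that pair overlapped. With shRNA3 Cd47 (160 ± 10.9 FPKM) stood above Cd24a (141 ± 4.21), and Pvr stood above Nt5e and Cd276. Cd274 remained the lowest detected ligand in every group.

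The genes around each ligand were read from lists chosen with earlier results known. With the 4 knockdown libraries fitted as 1 group, the calls over both hairpins ended for Tnfsf9 (limma adjusted p = 0.0884), Cd40 (0.109), Pdia3 (0.132), Calr (0.141), Itgb3 (0.577), Cadm4 (0.116), Lgals8 (0.561), Entpd6 (0.0839), Irf1 (0.0936) and Cmtm6 (0.06708). Of 27 other ligands and receptors of the B7 and TNF families and related inhibitors, only 7 passed the filter. Pdcd1lg2, the second PD-1 ligand, was at 0.080 FPKM or less, and 11 genes, Cd80 and Cd86 among them, were listed at 0. Of the 7 tested 3 rose over both hairpins and 0 fell, with a median of 0.33. Of all genes tested 24.1% rose and 25.9% fell. Tnfsf9 (4-1BB ligand, a costimulator) went from 8.63 ± 0.870 FPKM to 14.9 ± 1.56 and 11.1 ± 1.81 (log2 difference 0.52 over both, adjusted p = 0.00353). The gene of VISTA, listed as 4632428N05Rik, went from 7.13 ± 0.0651 to 9.19 ± 0.692 and 10.8 ± 0.277 FPKM (0.43, adjusted p = 7.54e-04). Cd40 rose from 0.580 ± 0.127 to 0.967 ± 0.190 and 1.48 ± 0.290 FPKM (0.48, adjusted p = 0.0150), a call that ended without WT replicate 2 (limma adjusted p = 0.08926). Cd40 averaged below 1 FPKM in WT and with shRNA1 and entered the test only through its level with shRNA3. Its p-value and its place among the 3 that rose are therefore no independent support. With shRNA1 alone it was not called (0.31, limma adjusted p = 0.133). H2-T23, the nonclassical MHC molecule Qa-1 that engages NKG2A, moved like Lgals9 in sign: 132 ± 4.69 FPKM in WT, 97.9 ± 7.24 with shRNA1 and 157 ± 5.89 with shRNA3, with a difference between the hairpins of 0.67 (limma adjusted p = 1.39e-04). Clec2d, a ligand of an NK receptor, was lower with shRNA3 than with shRNA1 at the edge of the threshold (difference -0.42, limma adjusted p = 0.0496), and the call ended with no filter (0.136) and without shRNA1 replicate 2 (0.216) among others.

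Of the 10 other nectin and DNAM genes matched by symbol 5 were tested. Over the mean of both hairpins 4 rose and 0 fell (median 0.40), where 24.1% of all tested genes rose and 25.9% fell. The 4 were the ligand genes Pvrl2 and Pvrl1, the adhesion gene Cadm4 and the receptor gene Tigit. The call of Tigit ended with the knockdown libraries as 1 group (limma adjusted p = 0.239), and Tigit was not called with shRNA3 alone. Pvrl3 (nectin-3) was not called, at 17.8 FPKM in WT, 17.3 with shRNA1 and 17.6 with shRNA3 (log2 difference -0.03 over both, limma adjusted p = 0.631). Pvrl2 (nectin-2, which like Pvr binds DNAM-1 and TIGIT) measured 56.8 and 63.4 FPKM in the WT libraries, 95.8 and 85.7 in those of shRNA1, and 109 and 106 in those of shRNA3. It rose 1.51-fold and 1.79-fold (log2 difference over both 0.71, limma adjusted p = 6.53e-05), a size close to that of Pvr. Pvrl1 (nectin-1) rose from 2.85 ± 0.0933 FPKM to 4.13 ± 0.216 and 4.65 ± 0.0544 (0.48, adjusted p = 9.77e-04). Cadm4, an adhesion molecule of the nectin-like family, went from 3.35 ± 0.0714 to 4.10 ± 0.556 and 5.48 ± 0.293 FPKM, called with shRNA3 (0.58, adjusted p = 0.00153) and not with shRNA1 (0.22, 0.106). Its difference between the hairpins (0.35, limma adjusted p = 0.0210) ended without shRNA1 replicate 1 (0.118), without shRNA3 replicate 2 (0.108) and with no filter (0.0535). The receptors Cd226 and Cd96 were listed at 0 in all libraries.

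For the phagocytosis signals, 8 of 12 other genes were tested. Over the mean of both hairpins 2 rose and 2 fell (median 0.07), a share equal to the 50.0% called among all genes. Thbs1, a matrix protein that binds CD47, rose from 108 ± 0.746 FPKM to 154 ± 0.187 and 183 ± 10.9 (log2 difference 0.62, adjusted p = 2.08e-05). Calr, whose protein on the cell surface promotes uptake, fell from 237 ± 1.97 to 200 ± 2.31 and 220 ± 4.03 FPKM (-0.17, adjusted p = 0.00324), and Pdia3, its partner in the endoplasmic reticulum, fell from 349 ± 5.85 to 320 ± 9.91 and 274 ± 10.9 (-0.24, adjusted p = 0.00163). The integrin genes Itgb3 and Itgav differed between the hairpins in opposite directions (-0.59, limma adjusted p = 2.75e-04, and 0.52, limma adjusted p = 5.00e-04). Against WT, Itgav was called lower with shRNA1 (-0.20, limma adjusted p = 0.0322) and higher with shRNA3 (0.31, 0.00309), as was Lgals9. Itgb3 measured 23.8 FPKM in WT, 33.4 with shRNA1 and 21.9 with shRNA3. Against WT it was called higher with shRNA1 (log2 difference 0.47, limma adjusted p = 8.42e-04) and was not called with shRNA3 (-0.12, 0.134). Its call over the mean of both hairpins (0.18, limma adjusted p = 0.0237) thus came from shRNA1. That call ended with equal totals (limma adjusted p = 0.136). It also ended without WT replicate 1 (difference 0.13), shRNA1 replicate 1 (0.17) or shRNA3 replicate 2 (0.15).

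Of the 15 other galectin genes 11 were tested. Over the mean of both hairpins 4 rose and 1 fell (median 0.14), a share close to the 50.0% of all genes. Lgals3 (galectin-3) rose from 177 ± 3.49 FPKM to 270 ± 4.04 and 308 ± 13.4 (log2 difference 0.70, adjusted p = 7.18e-06). Lgals3bp, a secreted glycoprotein that binds galectins, fell from 110 ± 7.39 to 69.2 ± 0.910 and 72.9 ± 0.628 FPKM (-0.62, adjusted p = 3.36e-05). P4hb, a disulfide isomerase that galectin-9 can bind, rose 1.23-fold over both (0.30, adjusted p = 3.75e-04). Lgals8, like Lgals9, was higher with shRNA3 than with shRNA1, by 0.55 (limma adjusted p = 1.66e-04), from 23.5 ± 0.547 to 34.9 ± 0.870 FPKM. In WT Lgals8 measured 25.3 ± 0.744 FPKM. Against WT it was called higher with shRNA3 (0.45, limma adjusted p = 2.11e-04) and was not called with shRNA1 (-0.10, 0.143). Its call over the mean of both hairpins (0.17, limma adjusted p = 0.0124) ended with equal totals (0.0948) and without WT replicate 2 (difference 0.14). Lgals7, at 0.803 ± 0.424 FPKM with shRNA1 and 1.62 ± 0.275 with shRNA3, differed by 0.56 (limma adjusted p = 0.0429), which ended without shRNA1 replicate 1 (0.214) or shRNA3 replicate 2 (0.0775), with a pseudocount of 0.1 (0.0549) and with no filter (0.08234). Lgals7 entered the test only through its level with shRNA3, so the p-value is no independent support.

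Around Nt5e, 10 of 21 other adenosine genes were tested, and 2 rose and 3 fell over both hairpins (median 0.06), the same share as the 50.0% of all genes. Entpd1 (CD39), which makes the AMP that CD73 uses, was listed at 0 in every library. Cd38, an ectoenzyme that consumes NAD and feeds another route to AMP, fell from 25.7 ± 1.67 FPKM to 17.8 ± 1.26 and 15.01 ± 0.417 (log2 difference -0.62, adjusted p = 1.24e-04). Slc29a1, the nucleoside transporter ENT1, fell from 82.7 ± 2.61 to 63.5 ± 1.11 and 51.3 ± 0.656 FPKM (-0.53, adjusted p = 3.18e-05), and the fall with shRNA3 exceeded that with shRNA1 (-0.30, limma adjusted p = 0.00135). Alpl, a phosphatase that can also hydrolyse AMP, fell 1.30-fold over both (-0.34, adjusted p = 0.00238). Entpd6 rose 1.39-fold (0.39, adjusted p = 0.00336). Bst1, a relative of Cd38, was lower with shRNA3 than with shRNA1 by a log2 difference of -0.60 (adjusted p = 0.00624).

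All 32 other genes known to act on PD-L1 passed the filter, and 14 rose and 6 fell over both hairpins (median 0.06, against -0.01 for all genes tested). Among all genes 50.0% were called, 24.1% higher and 25.9% lower. B3gnt3, a glycosyltransferase reported to modify PD-L1, rose from 16.8 ± 0.692 FPKM to 34.2 ± 2.61 and 28.8 ± 0.288 (log2 difference 0.87, adjusted p = 1.70e-05). Egfr rose from 2.89 ± 0.329 to 5.58 ± 0.0806 and 6.62 ± 0.801 FPKM (0.86, adjusted p = 1.50e-04), Socs3 1.73-fold (0.78, 6.12e-06) and Ifngr2, a subunit of the interferon-gamma receptor, 1.37-fold (0.43, 5.52e-04). Jak1 differed between the hairpins, at 36.3 ± 0.380, 44.6 ± 0.245 and 26.4 ± 0.251 FPKM (-0.73, limma adjusted p = 2.90e-05). Picked after their values were seen, Irf1, a transcription factor that drives Cd274, rose from 57.5 ± 1.77 to 65.7 ± 1.23 and 80.9 ± 2.33 FPKM, and Cmtm6, which keeps PD-L1 on the membrane, rose 1.19-fold over both (0.24, limma adjusted p = 0.00556).

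**Figure D3:**
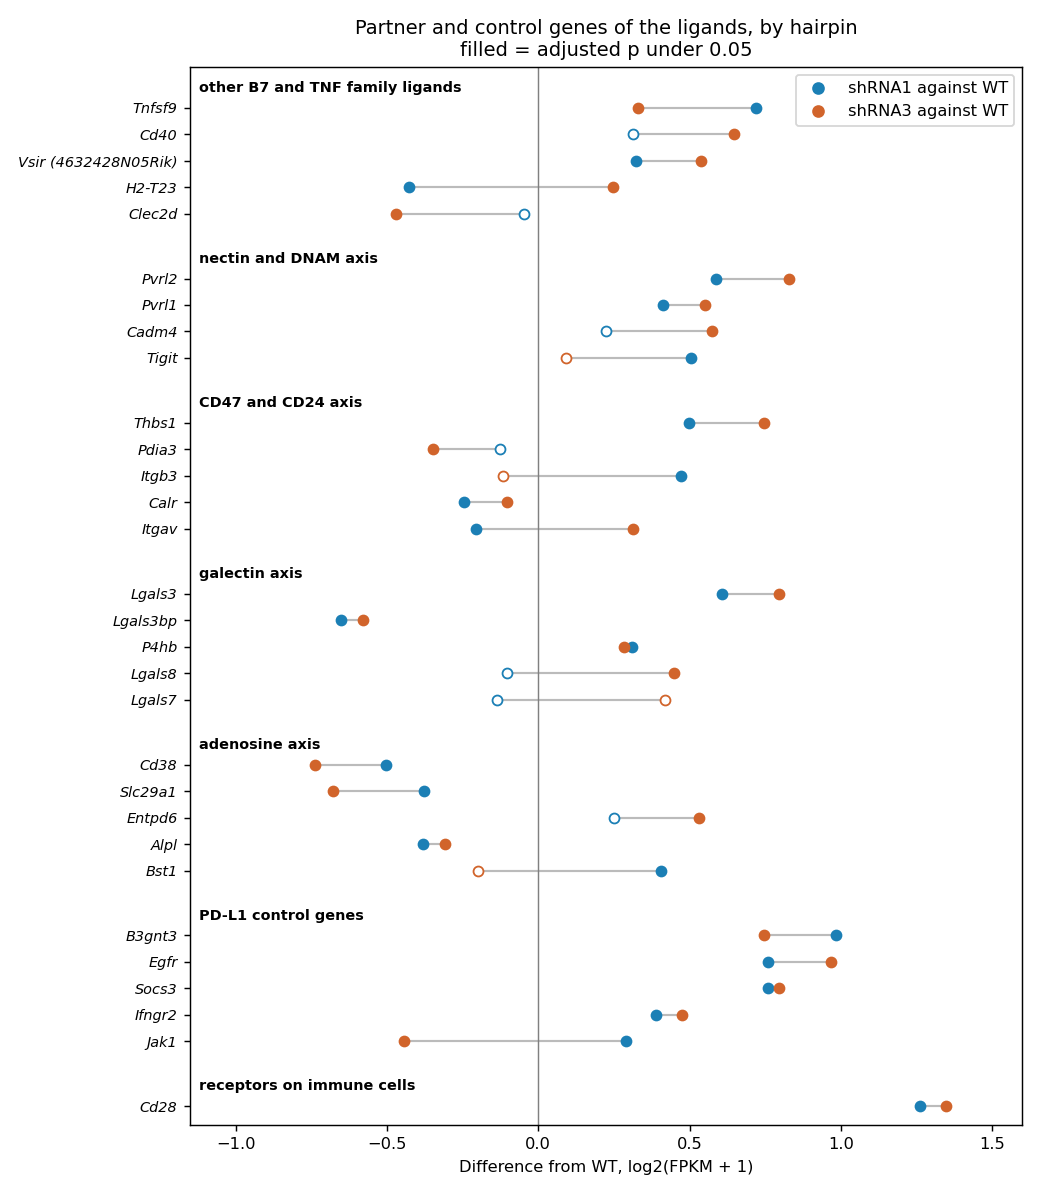
Difference from WT on the log2(FPKM + 1) scale (horizontal axis) with shRNA1 (blue) and shRNA3 (orange) for partner and control genes of the ligands, grouped by list and filled where the adjusted p was under 0.05. Pvrl2, Lgals3, B3gnt3 and Egfr lie to the right with both hairpins, Cd38 and Slc29a1 to the left, and the 2 points of H2-T23 lie on opposite sides of 0.

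The genes nearest in profile to Cd274, Pvr and Cd24a, the 3 ligands with the largest called change over the mean of both hairpins, were found among 8542 genes averaging 5 FPKM or more, by Euclidean distance over the 6 libraries after subtracting the WT mean of each gene. For Cd274 they were Ankrd1 (distance 0.21 on the log2 scale), the complement gene C3 (0.24) and Msln, the gene of mesothelin (0.26). C3 measured 98.9 and 100.6 FPKM in the WT libraries, 162 and 155 in those of shRNA1, and 237 and 240.0 in those of shRNA3. For Pvr they were Arrb1 (0.06), the sterol synthesis gene Lss (0.10) and Eno1b (0.11), whose reads may be shared with the near-identical Eno1. For Cd24a they were Serpine2 (0.04), Mnda (0.08) and Exosc3 (0.10), with Serpine2 at 1636 and 1597 FPKM in WT and 1063 and 1047 with shRNA3. These are descriptions of 3 groups of libraries and carry no test.

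**Figure D4:**
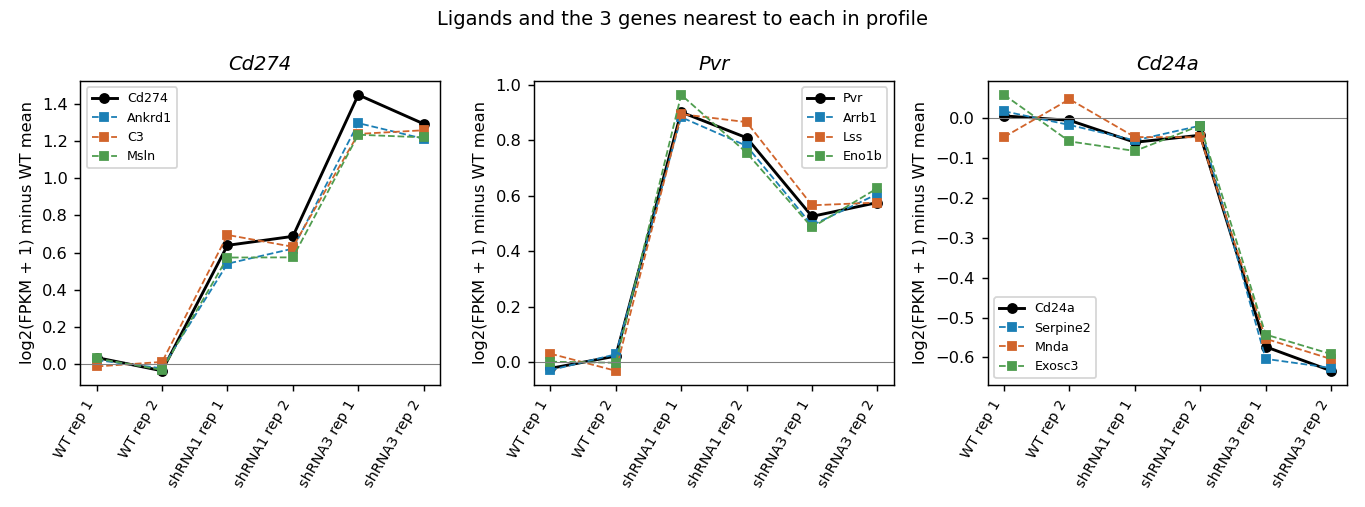
Profiles of Cd274, Pvr and Cd24a (black) over the 6 libraries with the 3 nearest genes of each (coloured), as log2(FPKM + 1) minus the WT mean of the gene (vertical axis). Cd274 and C3 step up from WT to shRNA1 to shRNA3, Pvr and Lss peak with shRNA1, and Cd24a and Serpine2 drop in the shRNA3 libraries.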

How the data were processed

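The members and gene lists were chosen with earlier results of these data known. Total RNA was made into libraries with a stranded mRNA kit, per the labels' protocols. For every library the authors deposited a table of symbols and values. These were read as FPKM, since Cufflinks 2.2.1 is listed in the submitters' processing notes and the values are neither whole nor share a total. Those notes list mm10 and, without roles, Bowtie2 2.2.3, TopHat2 2.0.13 and SAMtools 0.1.19. The annotation and the strand setting were not given in the sources used here. Because FPKM is relative to the mapped total, a rise of abundant genes lowers others.

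Groups were taken from the sample titles. Values were transformed to log2(FPKM + 1), genes averaging 1 FPKM or more kept, and 1 means model of the 3 groups fitted in limma 3.58.1 under R 4.3.3, using trended prior variance, 3 residual and 4.96 prior degrees of freedom. Contrasts were two-sided, and the fit was tested on simulated data. No count test was used because the files hold no counts. Named were the members, up to 4 called genes per list, ranked by change over both hairpins, and up to 2 between them (up to 3 of the highest mean where none was called), and the 3 nearest in profile to the 3 ligands that changed most over the mean of both hairpins; others are said to have been picked later. The values of 1 gene that this rule named are not reported here. Of the list symbols, 3 were not matched. Locations come from GENCODE mouse release 21 (GRCm38), promoters from RefSeq (GRCm38.p6), in which 6 of 8 members matched (not Cd24a and Pvr), and near copies from blastn 2.17.0+ (identity of at least 95% over 100 bases). The value of 1 fragment is the median smallest nonzero value of coding genes within 10% of the length that were detected in 1 to 3 libraries; it covers counting error only. As alternatives, pseudocounts of 0.1 and 0.5 were tried, then no filter or one at 5 FPKM, median-of-ratios, quantile and equal-total scaling, a replicate block, no trend, the knockdown libraries as 1 group, only the groups compared, and leaving out each library.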

Additional observations from a re-analysis of the deposited data

Results flagged for a closer look

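The effects of the 2 hairpins on 6 ligands differed by the test of the difference itself (limma, shRNA3 against shRNA1, adjusted p under 0.05). Of all genes tested, 42.5% were called in that comparison. On the log2 scale shRNA3 was above shRNA1 by 0.71 for Cd274, 0.38 for Lgals9 and 0.23 for Cd47. For Nt5e the difference was -0.72, for Cd24a -0.55 and for Pvr -0.30. The call of Cd47 ended without shRNA1 replicate 1 (difference 0.19) and without shRNA3 replicate 2 (0.16). AU021063 was lower with shRNA3 (0.393 ± 0.555 FPKM, n = 2) than with shRNA1 (0.808 ± 0.334 FPKM, n = 2), with overlapping libraries, and the part of the depth of knockdown in these differences was not tested.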

How the results depend on the processing

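Of 16 alternatives to each comparison of each tested ligand, the calls of Cd274 and Pvr passed in all, as did those of Cd24a, Nt5e and the hairpin difference of Lgals9 outside the fit of the knockdown libraries as 1 group. That fit called 2 ligands (Cd274 and Pvr) over both hairpins in place of 4, and 1513 genes of all tested in place of 5538; the differences between the hairpins count as spread in it by construction. With 1 library left out, the ligands called numbered 4 to 5 over both hairpins, 2 to 3 with shRNA1, 5 to 6 with shRNA3 and 5 to 6 between the hairpins. All genes called then numbered 3939 to 5089, 2709 to 3749, 4831 to 6058 and 3228 to 4653.

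Values that changed sign were all uncalled. Over both hairpins Lgals9 became -0.02805 with quantile normalization and -0.05687 with equal totals, and ran from -0.05687 to 0.04433 over all alternatives, below 0 also without WT replicate 1 (-0.001144) and without shRNA3 replicate 1 (-0.02763). Cd276 became 0.05697 over both hairpins without WT replicate 2. With shRNA1 Cd276 became -0.05052 with equal totals and ran from -0.07979 without WT replicate 1 to 0.08986 without WT replicate 2. Cd47 with shRNA1 became -0.03852 with quantile normalization, -0.04319 with equal totals, -0.01405 without WT replicate 2 and -0.02097 without shRNA1 replicate 2, against 0.04893 without shRNA1 replicate 1. With shRNA3 Cd276 ran from -0.1456 without WT replicate 1 to 0.02409 without WT replicate 2. Over both hairpins Itgav became -0.009685 with equal totals, and Bst1 ran from -0.0213 without WT replicate 1 to 0.2268 without WT replicate 2. The cause was not tested. Cd47 over both hairpins was called only without shRNA3 replicate 1 (0.16, limma adjusted p = 0.0212).

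The replicate numbers of the titles do not show that libraries were paired (correlations of deviations 0.01, -0.11 and 0.25 between groups). With the number as a replicate block, 5205 genes were called over both hairpins, 3523 with shRNA1, 5797 with shRNA3 and 4308 between them, and the ligands called numbered 4, 3, 6 and 6, as without it. Median-of-ratios scaling multiplies a whole library by 1 factor and so cannot test the order of ligand levels. Low FPKM limit what can be said of Vtcn1, Pdcd1lg2 and AU021063.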

Other observations

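Receptors that these ligands meet on immune cells were mostly missing from the libraries: of 15 followed, 7 were listed at 0 throughout, Pdcd1 among them, and 2 passed the filter. Those 2 were Tigit and Cd28. Tigit, an inhibitory receptor of T and NK cells that binds the products of Pvr and Pvrl2, measured 21.9 and 22.3 FPKM in the WT libraries, 29.4 and 34.4 in those of shRNA1, and 24.97 and 22.4 in those of shRNA3, above 63.0% of the tested genes in WT. Tigit rose 1.44-fold with shRNA1 (log2 difference 0.50, limma adjusted p = 0.00243) and was not called with shRNA3 (0.09, limma adjusted p = 0.357). The hairpins differed by -0.41 (limma adjusted p = 0.00507). Its call over the mean of both hairpins (0.30, limma adjusted p = 0.00879) ended without WT replicate 1 (difference 0.29). It also ended with the knockdown libraries as 1 group (limma adjusted p = 0.239). Cd28, the costimulatory receptor of T cells, measured 0.936 and 0.812 FPKM in the WT libraries, 3.11 and 3.89 in those of shRNA1, and 3.78 and 3.76 in those of shRNA3 (limma log2 difference over both 1.30, adjusted p = 3.69e-05). It lay below 1 FPKM in both WT libraries and entered the test only through the knockdown groups, so the p-value is no independent support. In the same libraries Cd3e, Cd3d, Cd3g, Cd4 and Ncr1 were listed at 0.

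Adora2b, an adenosine receptor picked after its values were seen, lay below the filter and was not tested with limma. It measured 0.449 and 0.303 FPKM in the WT libraries, 1.30 and 1.38 in those of shRNA1, and 1.101 and 1.13 in those of shRNA3. All knockdown libraries thus stood above WT. Of the genes tested, 47.7% did not overlap in that comparison, in either direction. A link to the fall of Nt5e with shRNA3 was not tested.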
